A study of Mus musculus with 5 samples.

Results

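The genes described here encode the amino acid and neurotransmitter carriers of the solute carrier families Slc1, Slc3, Slc6, Slc7, Slc36, Slc38 and Slc43. They were measured in newborn mouse atria with 1 or both alleles of the cardiac transcription factor gene Nkx2-5 floxed. The rule that chose them was set with earlier results of these data known, but it uses no measured value. It takes every protein-coding gene whose symbol is 1 of these 7 family names followed by a member number. This gave 60 of the 40624 genes of the deposited table, under 59 symbols, because Slc38a9 has 2 identifiers. RNA came from atria of C57BL/6 mice at postnatal day 1 (P1). Control atria (SLN-Cre; Nkx2-5-flox/+) carried a Cre recombinase under the name of sarcolipin, a calcium pump inhibitor of atrial muscle, and 1 floxed Nkx2-5 allele. Mutant atria (SLN-Cre; Nkx2-5-flox/flox) carried the same Cre and had both alleles floxed. Both groups therefore held the Cre, and the control was heterozygous for the floxed allele. There were 3 control libraries (replicates 2, 4 and 6) and 2 mutant libraries (replicates 5 and 7), and the labels do not say whether each came from a separate animal, so p-values reflect only how much these libraries vary, which may be technical.

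Amino acids cross cell membranes through several carrier families. Members of Slc1 and Slc6 use the sodium gradient to take up glutamate, neutral amino acids, neurotransmitters, taurine or creatine. Members of Slc7 either carry cationic amino acids alone or are light chains that reach the membrane only when bound to a heavy chain of Slc3, and the resulting heterodimers exchange one amino acid for another. Slc38 carriers load the cell with glutamine and other small neutral amino acids, which the exchangers can then trade for leucine and its relatives. In heart muscle, taurine and creatine are held at high concentration by the carriers Slc6a6 and Slc6a8.

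Levels below are CPM (read counts scaled to a common library size), adjusted by edgeR's TMM method. Changes are log2 fold changes of mutant over control with their standard error (SE), and a gene is called changed when edgeR's quasi-likelihood test gives a Benjamini-Hochberg adjusted p under 0.05 over all 17835 tested genes. Gene counts ran from 58501214 (control 2) to 78841494 (mutant 5) per library. Nkx2-5 itself stood at 71.3 to 76.8 CPM in the controls and at 5.21 and 5.79 CPM in the mutants, and fell by 3.74 ± 0.09 (SE, adjusted p = 7.0e-07, edgeR). The atrial marker list was present in both groups, with none of its 8 genes at 0, although 2 of them fell, namely Nppa and Gja5. Its sum was 24990 to 27060 CPM against 19940 and 21160 CPM, and Nppa alone stood at 5281 to 6769 CPM against 848.5 and 1194 CPM. The other 6 atrial genes did not pass, with Myl7 at -0.05 ± 0.08 (SE) and Myl4 at -0.01 ± 0.08. Markers of other cells of the tissue differed too. In the epicardial list 6 of 8 genes fell, and its summed level was 1189 to 1370 CPM in controls and 811 and 845 CPM in mutants. In the fibroblast list 3 of 8 fell, with sums of 10640 to 12100 CPM against 8467 and 8628 CPM. In the smooth muscle and pericyte list 1 of 8 rose (Acta2), with 668 to 778 CPM against 1746 and 2109 CPM, and without Acta2 the sums were 302 to 345 CPM against 416 and 502 CPM. In the erythroid list 1 of 12 tested genes rose (Hba-a1), with 1133 to 1482 CPM against 1775 and 1806 CPM. The endothelial list had 1 of 10 higher, with 1698 to 1871 CPM against 1890 and 2218 CPM. The macrophage and leukocyte list had 1 of 8 tested genes higher. The neuron and Schwann cell list had 0 of 11 called by edgeR (2 at an unadjusted p under 0.05), with 30.8 to 38.9 CPM against 22.1 and 30.0 CPM. The ventricular list had 1 of 6 higher (Hey2, 2.59 ± 0.10), but its median log2 fold change was -0.69, and Myl3 had -2.57 ± 0.47 without passing (adjusted p = 0.076, edgeR). Its sums overlapped and were mostly Myh7, and without that gene they were 91.4 to 250 CPM, against 79.7 and 60.1 CPM. The lung epithelium list summed to at most 1.37 CPM and the thymus list to at most 0.877 CPM in any library. The adipocyte list had 1 of its 2 tested genes higher, with 156 to 188 CPM in controls and 183 and 202 CPM in mutants. In such bulk tissue, fewer cells of a type and less RNA per cell cannot be told apart.

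Of the 60 carrier genes, 45 had enough counts to be tested, and 10 of these passed, 5 higher and 5 lower in mutant atria. That was 22.2% of the tested carriers, beside 6.58% of all tested genes. Because the carriers were chosen with earlier results of these data known, the difference between these shares was not tested. Over all tested genes, 3.02% were higher and 3.57% lower. The 5 genes that rose were Slc6a6, Slc7a5, Slc38a2, Slc38a6 and Slc3a2, and the 5 that fell were Slc7a7, Slc36a2, Slc7a4, Slc7a2 and Slc1a7. The median log2 fold change of the 45 carriers was -0.02, and that of all tested genes was 0.01. The mutant values lay wholly outside the control values for all 10 called carriers and for 21 of the 45 tested ones (46.7%), beside 37.9% of all tested genes. The authors' deposited table gave an adjusted p under 0.05 to 12 carriers, which included all 10 of these, with Slc1a6 and Slc6a17 besides.

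**Figure D1:**
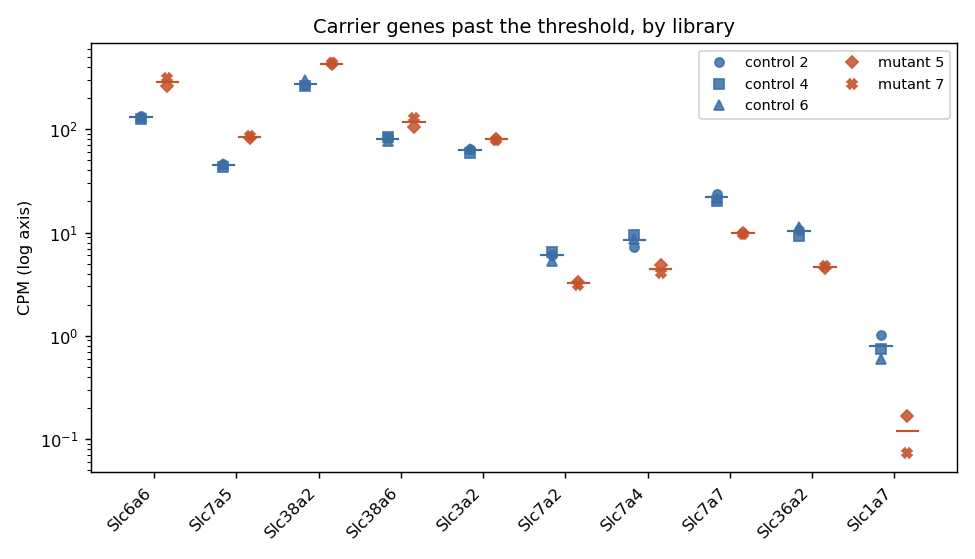
CPM on a log axis of the 10 carrier genes that passed, 1 point per library (blue for the 3 controls, red for the 2 mutants), with bars at the group means. The 2 groups do not overlap for any of the 10. The genes that rose stood at higher CPM than those that fell, on a scale not adjusted for gene length. By the authors' RPKM in controls, Slc7a7 (8.95), which fell, stood above Slc7a5 (7.76) and Slc38a6 (6.57), which rose.

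Slc7a5 and Slc3a2 encode the light and heavy chain of LAT1, an exchanger that brings in leucine, phenylalanine and other large neutral amino acids. Slc7a5 (ENSMUSG00000040010; listed span on chromosome 8, 124406940 to 124431506, mm9; for nearly all carriers the listed span is the coding span) measured 45.9, 43.6 and 46.5 CPM in controls 2, 4 and 6. Mutants 5 and 7 gave 82.3 and 86.9 CPM. The 2 mutant libraries were close to each other and nearly double every control. The rise was 0.90 ± 0.07 (SE), or 1.87-fold, with means of 45.3 ± 1.55 CPM (SD, n = 3) and 84.6 ± 3.29 CPM (SD, n = 2), with an adjusted p of 3.5e-04 by edgeR. Slc3a2 (ENSMUSG00000010095; chromosome 19, 8782213 to 8797585, mm9) measured 64.8, 59.0 and 64.7 CPM in the controls. The mutant libraries gave 81.4 and 78.7 CPM, above every control but by a smaller step. Slc3a2 rose by 0.35 ± 0.07 (SE), with an adjusted p of 0.020 by edgeR. This call was lost without control 2 (adjusted p = 0.067) or control 4 (0.097), at 0.37 and 0.30 on the log2 scale. The other heavy chain gene, Slc3a1, which serves the cystine exchanger of the kidney, had 19 counts over all 5 libraries and was not tested.

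The light chains that bind Slc3a2 did not move together. Slc7a7 encodes y+LAT1, which exports cationic amino acids in exchange for neutral ones and sodium. Slc7a7 (ENSMUSG00000000958; chromosome 14, 54989470 to 55027841, mm9) measured 23.8, 20.1 and 21.7 CPM in the controls. The mutant libraries gave 9.93 and 9.67 CPM, under the level of any control by a factor of about 2. The fall was 1.16 ± 0.10 (SE) on the log2 scale, with an adjusted p of 6.9e-04 by edgeR. Slc7a7 is abundant in macrophages, and the macrophage and leukocyte list stood at 193 to 213 CPM across the controls, against 239 and 222 CPM in mutants. The part of macrophages in this result was not tested. Slc7a7 shares 232 exonic bases with Oxa1l on the opposite strand, and without knowledge of the strand setting the reads of those bases could not be told apart. Oxa1l had a log2 fold change of 0.08 ± 0.08 (SE).

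Slc7a6, the gene of y+LAT2, which works like y+LAT1, had a log2 fold change of 0.18 ± 0.11 (SE) that did not pass, at 19.7 to 21.3 CPM in controls and 20.7 and 25.9 CPM in mutants. Slc7a8, the gene of the neutral amino acid exchanger LAT2, had 0.21 ± 0.11 (SE), at 9.79 to 11.9 CPM and at 12.7 and 12.2 CPM. Its groups did not overlap, but the difference did not pass (adjusted p = 0.35, edgeR). Slc7a11, the light chain of the cystine and glutamate exchanger, stood at 4.17, 4.62 and 4.44 CPM and at 4.98 and 4.19 CPM, with overlapping groups and a change of 0.06 ± 0.15 (SE). Slc7a10, an exchanger of small neutral amino acids such as serine, stood at 0.958 to 1.36 CPM and at 0.871 and 1.04 CPM, with a change of -0.28 ± 0.27 (SE).

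Put on a common scale per length (CPM per kilobase of the table's exon length), these 6 light chains allowed the makeup of the pool to be compared. Slc7a5 made up 30.8%, 31.0% and 31.3% of the pool in controls 2, 4 and 6, against 52.4% and 51.8% in mutants 5 and 7. Slc7a7 made up 38.2%, 34.2% and 35.0% in controls, against only 15.1% and 13.8% in mutants. On this scale the leading light chain transcript was Slc7a7 in every control and Slc7a5 in every mutant. The order in controls rests on the listed exon lengths (5423 bases for Slc7a5 and 2270 for Slc7a7), because Slc7a5 had the higher CPM in every library. The margin was small in control 4, with Slc7a7 at 8.88 and Slc7a5 at 8.04 CPM per kilobase. The shares of Slc7a6 (20.5% ± 1.41 in controls, SD, n = 3, and 20.8% ± 2.33 in mutants, SD, n = 2) and Slc7a8 (9.92% ± 1.0 and 10.3% ± 0.81) overlapped between the groups. An exact two-sided permutation test gave p = 0.1 for Slc7a5 and for Slc7a7, the smallest value that 3 against 2 libraries allow. The summed pool was 27.5, 26 and 27.4 CPM per kilobase in controls, against 29.0 and 31.0 in mutants. The ratio of this sum to Slc3a2 per kilobase was 1.43, 1.48 and 1.43 for controls, against 1.2 and 1.33 for mutants.

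**Figure D2:**
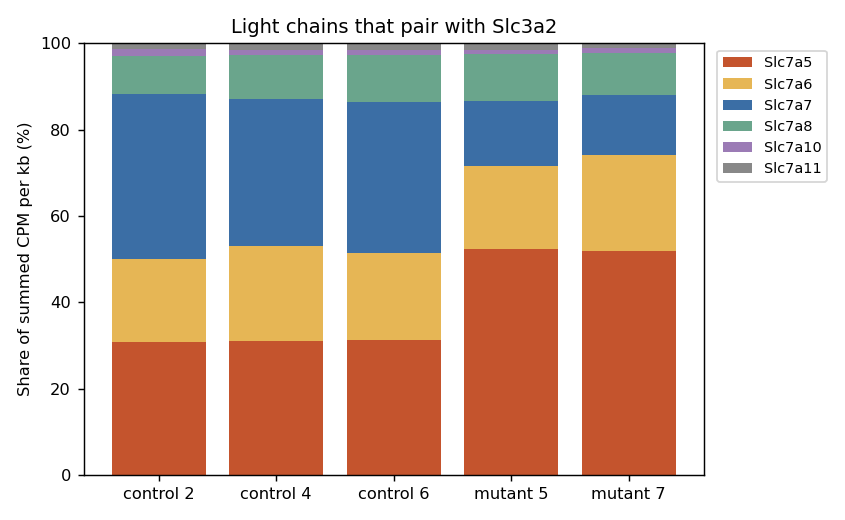
Share (%) of the summed CPM per kilobase of the 6 light chain genes that pair with Slc3a2, 1 stacked bar per library. The Slc7a5 part is about 31% in each control and 52% in each mutant, and the Slc7a7 part shrinks from 34.2% or more to 15.1% or less.

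The light chain Slc7a9, which pairs with Slc3a1, stood at 0.370 to 0.441 CPM across the controls, against 0.410 and 0.176 CPM in mutants and did not pass. Slc7a13 and Slc7a15 had 7 and 6 counts over all libraries, and Slc7a12 had none in any library. A count of 0 in a library allows a level of up to 3 counts, which is 0.0384 to 0.0509 CPM here and covers counting error only.

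Start site sequences are shown for Slc7a7, which fell, for Slc3a2 and Slc38a2, which rose, and for Slc7a11 and Slc1a4, which did not pass. They were examined because amino acid shortage raises several of these genes through the factor ATF4 and because Nkx2-5 was the floxed gene. RefSeq windows (GRCm38.p6, 250 bases before to 50 after a start) were at hand for 41 of the 59 symbols, in 62 windows, and for 5 of the 10 called genes (Slc1a7, Slc38a2, Slc38a6, Slc3a2 and Slc7a7). They were searched on both strands for the ATF4 element core TGATGNAA, for TTGCATCA (the reverse complement of TGATGCAA, so each of its matches is also a match of the first) and for the Nkx2-5 consensus TNAAGTG. Of all 32851 RefSeq windows, 3.97%, 0.89% and 11.5% held these letters. Of the 62 carrier windows, 4, 4 and 3 did, and among the called genes with a window only Slc7a7 had any of them. The 4 windows with the ATF4 core came from 3 genes, because overlapping Slc7a7 windows held the same TGATGCAA site. Sequence outside these windows was not searched, so an absent match does not show that a gene lacks such an element. Capitals mark the matches. Slc7a11 and Slc1a4 are shown as carriers with the ATF4 core, and the Slc7a7 stretch comes from its only window with the Nkx2-5 letters. The windows of Slc38a6 and Slc1a7, called genes without a match, are not shown. The Slc7a7 window (chr14:54417935-54418044, minus strand) runs from base -100 to base +10 around 1 of its 5 listed starts, and those of Slc3a2 (chr19:8713898-8713997), Slc38a2 (chr15:96699729-96699828) and Slc7a11 (chr3:50443614-50443713), also on the minus strand, hold the 100 bases before the start. The window of Slc1a4 (chr11:20332704-20332813, minus strand) runs from -100 to +10.
Slc7a7: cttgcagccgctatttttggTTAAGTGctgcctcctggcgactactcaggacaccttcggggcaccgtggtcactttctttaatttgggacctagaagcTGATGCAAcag
Slc3a2: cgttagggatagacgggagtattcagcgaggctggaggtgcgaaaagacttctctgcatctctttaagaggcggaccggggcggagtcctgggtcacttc
Slc38a2: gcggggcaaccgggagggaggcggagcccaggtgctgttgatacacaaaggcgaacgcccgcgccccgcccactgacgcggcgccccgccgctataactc
Slc7a11: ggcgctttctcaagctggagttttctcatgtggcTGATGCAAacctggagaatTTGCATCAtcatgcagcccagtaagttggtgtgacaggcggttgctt
Slc1a4: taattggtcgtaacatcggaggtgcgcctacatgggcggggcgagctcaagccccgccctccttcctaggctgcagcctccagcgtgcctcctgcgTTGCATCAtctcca
Slc7a7, which fell, has the Nkx2-5 letters 80 bases before this start and the ATF4 core across it, with a further TGATGNAA match 141 bases before it, outside the stretch shown. Slc7a11 has the ATF4 core at 2 places and Slc1a4 at 1, and neither gene passed. A match describes letters in a window and is not evidence of binding.

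The taurine carrier gene Slc6a6 had the largest rise of the called carriers. Slc6a6 (ENSMUSG00000030096; chromosome 6, 91673287 to 91705051, mm9) measured 135, 125 and 133 CPM in controls 2, 4 and 6. Mutants 5 and 7 gave 262 and 318 CPM. The controls lay within 10 CPM of one another, and both mutants were about double them. The rise was 1.14 ± 0.09 (SE), or 2.21-fold, with means of 131 ± 5.13 CPM (SD, n = 3) and 290.0 ± 39.2 CPM (SD, n = 2), with an adjusted p of 4.2e-04 by edgeR. Slc6a6 shares 117 exonic bases with the opposite-strand gene Gm44981. The genes of taurine synthesis from cysteine did not pass: Csad had -0.14 ± 0.08 (SE), Cdo1 -0.11 ± 0.12 and Ado 0.08 ± 0.08.

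The creatine carrier gene Slc6a8 served as a contrast within the same family. It stood at 66.5, 68.1 and 67.2 CPM across the controls, against 66.3 and 68.4 CPM in mutants. The 5 libraries spanned about 2 CPM, and the change was 0.00 ± 0.06 (SE). Slc6a8 is on the X chromosome with Slc6a14, Slc7a3 and Slc38a5, and none of these 4 was called.

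The neurotransmitter carriers of Slc6 were at low levels. The serotonin carrier gene Slc6a4 was the monoamine carrier with enough counts to test, at 1.17, 2.10 and 2.02 CPM in controls and 2.02 and 2.05 CPM in mutants. Control 2 was the low library, and the change of 0.21 ± 0.27 (SE) did not pass. The noradrenaline carrier gene Slc6a2 had 21 counts in all and the dopamine carrier gene Slc6a3 had 10. Slc6a13 encodes a carrier of GABA, taurine and betaine and had enough counts to test. It stood at 3.97, 3.58 and 4.35 CPM and at 2.79 and 2.86 CPM, without overlap, but its change of -0.49 ± 0.16 (SE) did not pass (adjusted p = 0.12, edgeR). Slc6a12, the betaine carrier gene, had 16 counts in all and Slc6a11 none. The glycine carrier gene Slc6a9 stood at 3.23 to 4.3 CPM and at 2.77 and 3.88 CPM, with overlap, and the proline carrier gene Slc6a7 had at most 14 counts in a library. Slc6a5, a glycine carrier of nerve endings, had 4 counts in all.

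Among the Slc6 carriers of neutral amino acids, Slc6a17, known from synaptic vesicles, stood at 11.6, 11.6 and 10.01 CPM across the controls, against 6.19 and 9.07 CPM in mutants. Mutant 5 was the lower of the mutants, and the change of -0.54 ± 0.17 (SE) did not pass (adjusted p = 0.11, edgeR). It passed with DESeq2 (adjusted p = 0.037) and in edgeR without mutant 7 (0.017). Slc6a15 and Slc6a14 stood at 0.712 CPM or less in every library and did not pass. Slc6a18 had 46 counts in all, and Slc6a19, the carrier of gut and kidney brush border, had none.

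Slc38a2 encodes SNAT2, a sodium-coupled carrier of glutamine, alanine and other small neutral amino acids that is known to be induced by amino acid shortage. It had the highest level of all 60 genes in the authors' deposited table, 55.8 RPKM (reads per kilobase of exon, scaled to library depth) in controls and 85.7 RPKM in mutants. Slc38a2 (ENSMUSG00000022462; chromosome 15, 96520558 to 96529161, mm9) measured 270.4, 261 and 302 CPM in controls 2, 4 and 6. Mutants 5 and 7 gave 427 and 441 CPM, well above control 6, the highest control. The rise was 0.64 ± 0.08 (SE), or 1.56-fold, with an adjusted p of 0.0032 by edgeR. Slc38a6, a relative with a less settled substrate, stood at 83.5, 83.7 and 76.4 CPM and rose to 105 and 129 CPM. The mutants differed from each other more than the controls did, the rise was 0.52 ± 0.09 (SE), and the adjusted p was 0.014 by edgeR. This call was lost without control 4 (adjusted p = 0.059) or control 6 (0.054), at 0.54 and 0.49 on the log2 scale.

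The other 8 tested rows of Slc38 did not pass. Slc38a1 (SNAT1) and Slc38a4 (SNAT4), which carry similar substrates, flank Slc38a2 on chromosome 15 at 66.0 and 298 kb, with no other protein-coding gene listed between them. Slc38a1 stood at 84.9 to 90.2 CPM across the controls, against 83.0 and 91.9 CPM in mutants, a change of -0.02 ± 0.07 (SE). Slc38a4 stood at 82.2 CPM in control 2, 123 and 124 CPM for controls 4 and 6, 125 and 138 CPM for the mutants. The low value of control 2 set most of its spread, and its change of 0.26 ± 0.20 (SE) did not pass. Slc38a10 stood at 156 to 168 CPM and at 145 and 150.1 CPM, without overlap, and its change of -0.14 ± 0.06 (SE) did not pass (adjusted p = 0.27, edgeR). Slc38a5, the X-linked carrier SNAT5, stood at 11.8, 9.48 and 9.29 CPM and at 8.48 and 6.94 CPM, with -0.40 ± 0.15 (SE) and an adjusted p of 0.17 by edgeR. Slc38a3, Slc38a7 and the 2 rows of Slc38a9, the lysosomal arginine sensor, ranged from -0.15 to 0.46. Slc38a8 and Slc38a11 had 10 and 29 counts in all and were not tested.

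Slc38a2 took 46.4% to 49.6% of the summed CPM per kilobase of the Slc38 genes (Slc38a9 left out, because its 2 rows overlap in name) in controls and 58.3% and 56.9% in mutants, without overlap (exact permutation p = 0.1, the smallest possible). The shares of Slc38a1, Slc38a5, Slc38a7 and Slc38a10 were lower in mutants with the same exact permutation p. Slc38a10, for example, had mean shares of 12.3% and 8.51%. Shares of the same sum depend on one another, so these are not separate results. That sum was 118 to 132 CPM per kilobase in controls and 158 and 167 in mutants.

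The cationic amino acid carriers fell where they passed. Slc7a2 (CAT2), which supplies arginine, stood at 6.12, 6.54 and 5.31 CPM across the controls, against 3.33 and 3.11 CPM in mutants. This gene fell by 0.90 ± 0.15 (SE) in log2 units, with an adjusted p of 0.012 by edgeR. Slc7a4, a relative whose own transport activity is uncertain, stood at 7.29, 9.40 and 8.66 CPM and at 4.83 and 4.06 CPM. It fell by 0.93 ± 0.16 (SE), with an adjusted p of 0.011 by edgeR. Both falls lost their calls without control 4, with an adjusted p of 0.058 for Slc7a2 and 0.051 for Slc7a4 and with changes of -0.83 and -0.85. Slc7a4 shares 554 exonic bases with P2rx6 on the opposite strand, whose own change was -0.99 ± 0.30 (SE, adjusted p = 0.097, edgeR), and Slc7a2 shares 635 with Gm26584. Slc7a1 (CAT1), the widespread carrier of the group, varied within groups, at 19.7, 38.2 and 57.4 CPM across controls 2, 4 and 6, against 50.8 and 37.4 CPM in mutants 5 and 7. Its controls spanned about 3-fold, and its change of 0.20 ± 0.53 (SE) did not pass. Slc7a3 and Slc7a14 did not pass either.

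Slc36a2 encodes PAT2, a proton-coupled carrier of glycine, alanine and proline. Slc36a2 (ENSMUSG00000020264; chromosome 11, 54972846 to 54998461, mm9) measured 10.6, 9.33 and 11.3 CPM across controls 2, 4 and 6, against 4.49 and 4.70 CPM in mutants 5 and 7. The mutants agreed closely and lay under every control. It fell by 1.18 ± 0.13 (SE) in log2 units, leaving 0.44 of the control level, with an adjusted p of 0.0019 by edgeR. The neighbour Slc36a1 (PAT1), 29.0 kb away on the other strand, stood at 16.6, 17.5 and 17.1 CPM and at 13.9 and 18.6 CPM, a change of -0.07 ± 0.12 (SE). On its other side, 8.0 kb away, Slc36a3 had no count in any library. Slc36a4 stood at 33.3 to 33.9 CPM and at 31.9 and 36.7 CPM and did not pass.

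Of the Slc1 family, only Slc1a7 passed, at the lowest level of the 10 called genes. Slc1a7 encodes the glutamate carrier EAAT5, best known from the retina. It had 60, 44 and 37 counts in controls 2, 4 and 6 (1.02, 0.74 and 0.60 CPM) and 13 and 5 counts in mutants 5 and 7 (0.17 and 0.07 CPM). Its log2 level fell by 2.67 ± 0.48 (SE), with an adjusted p of 0.015 by edgeR, and the call was lost without control 2 (-2.45, adjusted p = 0.051) or mutant 7 (-2.23, 0.055). Without mutant 5 the change was -3.39. Slc1a6 (EAAT4) went the other way without passing, at 0.70, 0.86 and 0.21 CPM in controls and 1.45 and 1.68 CPM in mutants, where control 6 was the low library (change 1.41 ± 0.48 SE, adjusted p = 0.14, edgeR). Slc1a6 is among the 12 carriers with an adjusted p under 0.05 in the authors' deposited table.

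The other glutamate carriers did not pass. The glial carrier gene Slc1a3 (EAAT1) stood at 7.28, 7.92 and 7.85 CPM and at 5.29 and 6.21 CPM, without overlap, with -0.42 ± 0.13 (SE). Its adjusted p was 0.10 by edgeR and 0.046 by DESeq2. Slc1a2 (EAAT2) had 0.46 ± 0.30 (SE). Slc1a1 (EAAT3) had 0.21 ± 1.03 (SE) with 5, 10 and 57 counts in controls, and 2631 of its exonic bases are shared with an opposite-strand gene. The neutral amino acid exchanger genes Slc1a4 (ASCT1) and Slc1a5 (ASCT2), which trade alanine, serine, cysteine and glutamine, had 0.21 ± 0.13 and -0.05 ± 0.08 (SE). Slc1a5 was well expressed, at 40.6 to 45.4 CPM in controls and 41.8 and 42.1 CPM in mutants, with overlap.

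No member of Slc43 passed, although all 3 had enough counts. Slc43a1 (LAT3), which carries leucine and related amino acids without a heavy chain, stood at 12.1, 14.3 and 11.4 CPM across the controls, against 15.8 and 16.5 CPM in mutants. Its groups did not overlap, with 0.36 ± 0.11 (SE) and an adjusted p of 0.10 by edgeR. Slc43a2 (LAT4) had 0.39 ± 0.15 (SE) and an adjusted p of 0.18 by edgeR, again without overlap. Slc43a3, a carrier of purine bases 74.7 kb from Slc43a1, stood at 95.6 to 102 CPM and at 102 and 98.3 CPM, with 0.02 ± 0.06 (SE).

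**Figure D3:**
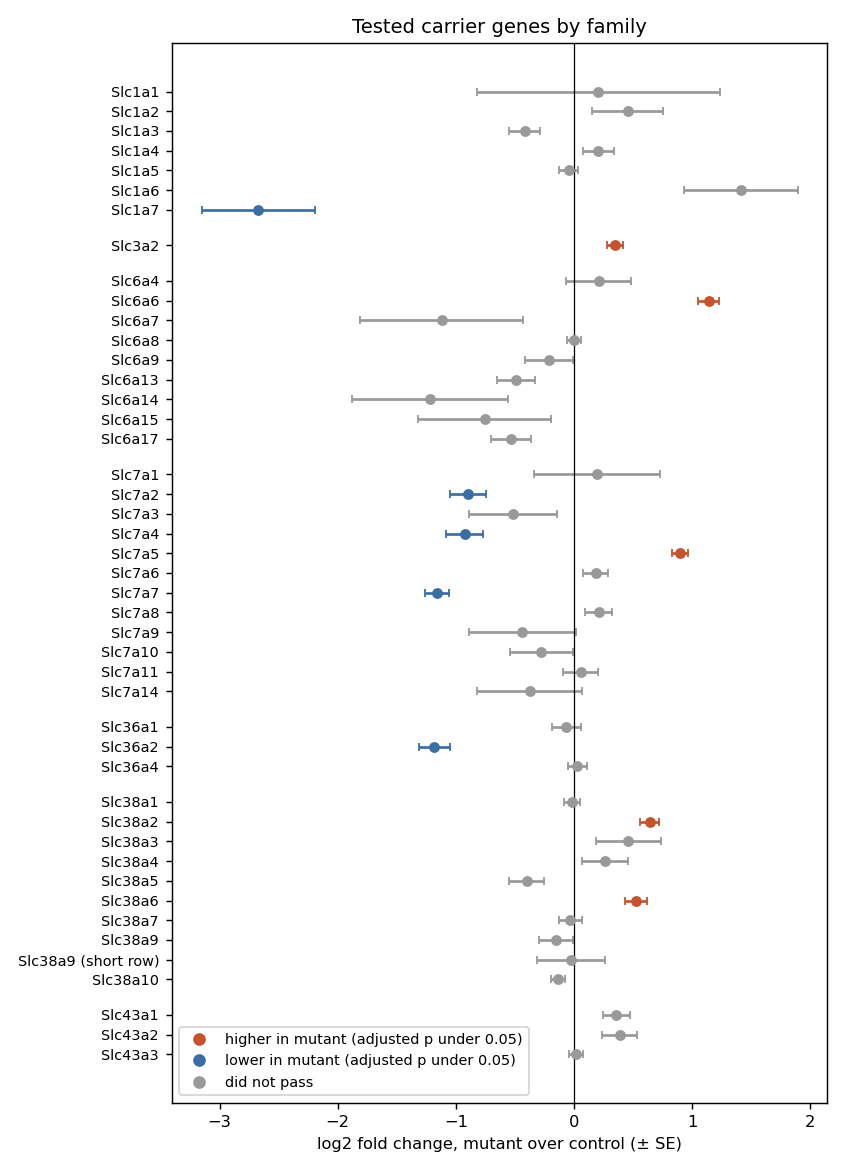
Log2 fold change (mutant over control) with its SE for the 45 tested carrier genes, ordered by family and coloured by whether edgeR's adjusted p was under 0.05. The 5 genes that rose lie between 0.35 and 1.14, and the 5 that fell lie between -0.90 and -2.67. The wide bars belong to genes with few counts or to genes whose libraries lay far apart, such as Slc7a1 (SE 0.53, 13485 counts).

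The genes that rose and those that fell differed in level. By the authors' deposited RPKM, the 5 that rose stood between 6.57 and 55.8 RPKM in controls, with a median of 17.3. The 5 that fell stood between 0.12 and 8.95 RPKM, with a median of 1.17. The 35 that did not pass covered 0.05 to 21.8 RPKM. In the order of control RPKM, Slc38a2 was followed by Slc38a4 (21.8), Slc6a6 (19.8), Slc3a2 (17.3), Slc43a3 (16.1), Slc38a10 (14.1), Slc38a1 (9.78) and Slc7a7 (8.95). The pooled values carry no error, so the order of near neighbours such as Slc6a6 and Slc38a4 was not tested. In the mutants' RPKM, Slc6a6 stood second at 42.7 and Slc7a7 fell to 3.95.

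**Figure D4:**
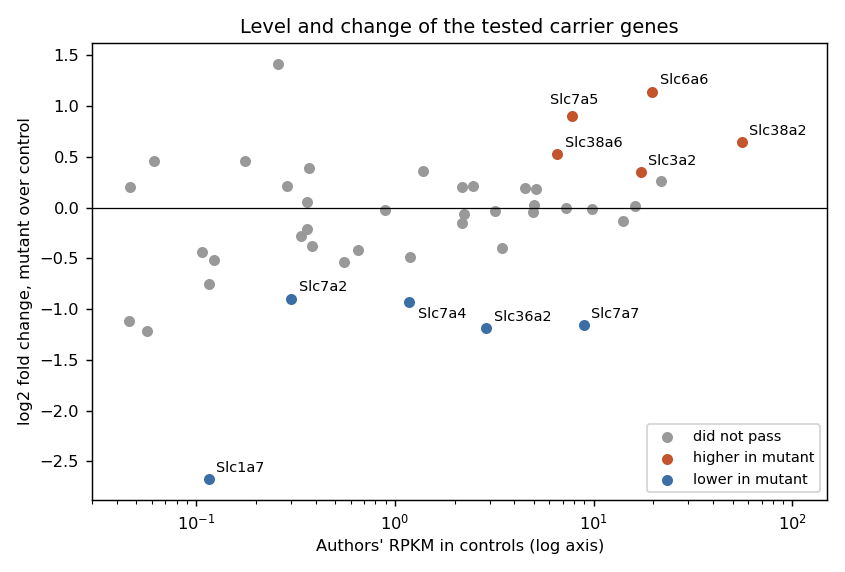
The authors' pooled RPKM in controls (log axis) against the log2 fold change (mutant over control) of the 45 tested carrier genes, coloured by call. The 5 genes that rose lie at 6.57 RPKM or more, and the 5 that fell lie at 8.95 RPKM or less.

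The 10 calls were not equally firm. Slc6a6, Slc7a5, Slc38a2, Slc7a7 and Slc36a2 passed in all 14 alternatives run, including the stricter threshold of 0.01 and the removal of each library. The other 5 kept their direction in each alternative that tested them but lost their call at the 0.01 threshold and without 1 or more single libraries as given above. The count of carriers called was 3 higher and 3 lower without control 4, while 3.01% of all tested genes were then called. The falls of Slc7a7, Slc36a2, Slc7a4, Slc7a2 and Slc1a7 stood beside lower epicardial and fibroblast marker sums, and the rises of Slc7a5, Slc3a2, Slc38a2, Slc38a6 and Slc6a6 beside higher erythroid, smooth muscle, endothelial and macrophage sums. The atrial and the neuron and Schwann cell sums were lower in both mutants than in any control. Within the atrial sum, Nppa went from 5281 to 6769 CPM in controls to 848.5 and 1194 CPM in mutants, and 6 of the 8 atrial genes did not pass. The part of these cells in the carrier results was not tested.

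**Figure D5:**
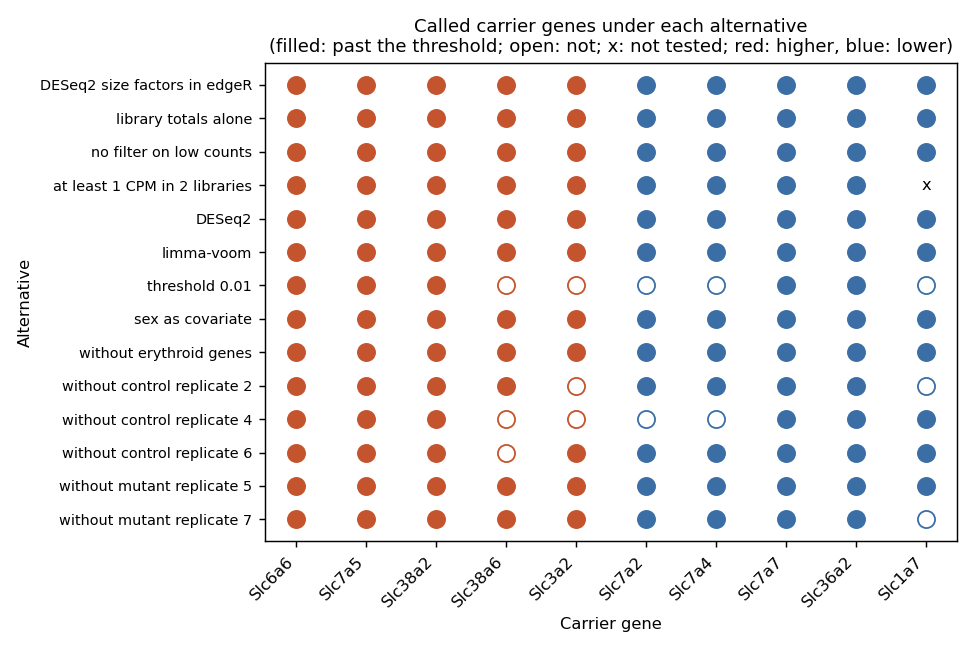
Whether each of the 10 called carrier genes (columns) passed its threshold under each of 14 alternatives (rows). Filled points passed, open points did not, and x marks Slc1a7, which was not tested when 1 CPM in 2 libraries was required. Slc6a6, Slc7a5, Slc38a2, Slc7a7 and Slc36a2 are filled throughout.

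Genes around amino acid supply were examined in 8 further lists, also chosen with earlier results of these data known. Of their 150 tested genes, 16 were called (10.7%), beside 6.58% of all tested genes. That count was 4 without control 4, when 3.01% of all genes were called. It was 8 without control 2 and 8 without control 6, beside 2.99% and 4.22% of all genes. It was 10 without mutant 7 and 11 without mutant 5, beside 4.68% and 9.33%, and 10 with sex as a covariate, beside 5.52%. Of 29 tested genes of the ATF4 amino acid stress response, 3 rose, 1 fell and 25 did not pass, so that 13.8% were called, beside 6.58% of all genes. Stc2, a secreted glycoprotein gene, rose by 0.60 ± 0.11 (SE), the one-carbon enzyme gene Mthfd2 by 0.40 ± 0.10 and Cbs, an enzyme gene of cysteine synthesis, by 0.94 ± 0.23, while the stress cofactor gene Nupr1 fell by 0.62 ± 0.12. Among the members that did not pass, the asparagine synthetase gene Asns had -0.02 ± 0.10 (SE), Psat1 of serine synthesis 0.01 ± 0.07 and Trib3, a feedback inhibitor, 0.30 ± 0.19. Atf4 itself had -0.14 ± 0.07. Ddit3 fell short of the threshold at -0.42 ± 0.11 (SE, adjusted p = 0.057, edgeR), without overlap of the groups. Over the 29 tested genes, 16 changes were positive and 13 negative. None of 20 cytosolic aminoacyl-tRNA synthetase genes and none of 14 genes of glutamine, glutamate and glutathione enzymes passed edgeR's test, with 2 and 3 at an unadjusted p under 0.05.

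Of 23 tested genes of mTORC1 and amino acid sensing, 21 did not pass, so that 8.7% were called, beside 6.58% of all tested genes. The list's median log2 fold change was 0.009. Tsc2, an inhibitor of the pathway, rose by 0.34 ± 0.06 (SE) and Flcn, which activates it at the lysosome, fell by 0.40 ± 0.09. Of 18 genes of branched-chain amino acid breakdown, 11.1% were called. Dld rose by 0.31 ± 0.07 and Mut by 0.30 ± 0.07, and none fell. Of 17 tested genes of creatine, taurine and polyamines, 3 rose (17.6%) and none fell. These were the polyamine synthesis gene Odc1 (0.33 ± 0.06), Azin1, which protects its product from degradation (0.56 ± 0.07), and the creatine kinase gene Ckb (0.47 ± 0.09).

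Of 15 tested genes of neurotransmitter synthesis, storage and breakdown, 2 rose and 1 fell, so that 20% were called, beside 6.58% of all genes. Slc17a7, the vesicular glutamate carrier gene, stood at 55.3, 67.9 and 63.7 CPM across the controls, against 15.9 and 19.9 CPM in mutants, and fell by 1.80 ± 0.13 on the log2 scale (SE, adjusted p = 4.3e-04, edgeR). Slc18a2, the vesicular monoamine carrier gene, rose by 0.74 ± 0.14, and Abat, a GABA breakdown enzyme gene, by 0.38 ± 0.09. Of 14 tested carriers of amino acids and peptides in other families, 14.3% were called. Slc25a13, the mitochondrial aspartate and glutamate exchanger gene, rose by 0.83 ± 0.08 (SE) and Slc15a3, a lysosomal peptide carrier gene, by 1.0 ± 0.21, and none fell. The median log2 fold changes of the 8 lists ran from -0.05 to 0.16, beside 0.01 for all tested genes.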

How the data were processed

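RNA-seq counts of 5 atrial libraries were analysed. Raw counts for each gene in each library were deposited, and per the file headers also RPKM values pooled to 1 per group, a log2 ratio and p-values that the authors computed. Per the submitters' processing notes TopHat2 2.0.4, HTSeq 0.5.4p3 and DESeq were among the tools, with build mm9. Strand setting and annotation release are not given in the sources used here. The 5 entries of the counting tool that name no gene were left out (no_feature 3.97% to 6.03% and ambiguous 2.31% to 3.18% of counts). For 55 of the 59 members found in GENCODE vM21, the listed span had the length of the coding span within 3 bases. That reference (GRCm38) served for this and for shared exonic bases.

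Counts were fitted with edgeR 4.0.16 in R 4.3.3 (filterByExpr, minimum count 10 and minimum total 15; TMM; robust quasi-likelihood test, two-sided; no covariate), with Benjamini-Hochberg adjustment over 17835 genes. Each SE was taken as the absolute log2 fold change over √F. CPM per kilobase uses the deposited exon length. No 2 libraries were copies (chi-square per degree of freedom 20.3 or more). By this measure control pairs stood at 20.3 to 33.9, but mutants 5 and 7 stood at 85.4. Against the controls, mutant 5 stood at 81.1 to 94.2 and mutant 7 at 101 to 124. The 2 mutants thus differed from each other about as much as mutant 5 differed from the controls. The rule for the members uses names alone, but that rule, the 8 pathway and 12 marker lists and the tests were chosen with earlier results of these data known. Named are called members, the 8 of highest RPKM, heavy and light chains, monoamine carriers, members at an unadjusted p under 0.05 and called list genes; further members and a few list genes are given by role and were picked after their values were seen. The values of 1 carrier are not reported here. Alternatives used DESeq2 1.42.0, limma 3.58.1 (voom), other scalings, filters and thresholds, sex as a covariate, the erythroid list left out and each library left out. Sex is not among the sample labels used here and was inferred for each library from its Ddx3y counts.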

Additional observations from a re-analysis of the deposited data

How the results depend on the processing

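No paired analysis was possible because the groups share no replicate number. The 10 called carriers had 129 alternative values beside the stricter threshold. All 129 kept their direction, and 121 had an adjusted p under 0.05. Of 444 alternative values of the 35 that did not pass, 3 passed: Slc1a3 with DESeq2, and Slc6a17 with DESeq2 and without mutant 7. Slc1a7 was not tested at 1 CPM in 2 libraries. At a threshold of 0.01, 3 carriers were higher and 2 lower, with 157 and 234 of all genes and 3 of the pathway genes. DESeq2 called 924 and 1032 of all genes. With sex as a covariate 10 pathway genes passed, and the carriers' median turned to 0.001. Leaving out 1 library gave 3 to 5 carriers higher and 3 to 5 lower, 4 to 11 pathway genes, 203 to 910 of all genes higher and 306 to 804 lower, and a carrier median of -0.095 (without mutant 7) to 0.022 (without mutant 5); the cause was not tested. The direction was opposite in 30 values of 15 carriers that had not passed, none past the threshold. With library totals alone Slc6a8, Slc43a3 and Slc36a4 had -0.035, -0.018 and -0.006. Slc6a8 had -0.001 at 1 CPM in 2 libraries, and with sex as a covariate Slc38a1 had 0.003 and the shorter Slc38a9 row 0.031. Across left-out libraries the ranges were -0.776 to 1.838 for Slc1a1, -0.292 to 0.127 for Slc36a1, -0.078 to 0.127 for Slc36a4, -0.095 to 0.056 for Slc38a1, -0.099 to 0.033 for Slc38a7, -0.354 to 0.022 and -0.423 to 0.289 for the rows of Slc38a9, -0.008 to 0.037 for Slc43a3, -0.015 to 0.348 for Slc6a4, -0.027 to 0.022 for Slc6a8, -0.477 to 0.015 for Slc6a9, -0.117 to 0.61 for Slc7a1, -0.075 to 0.172 for Slc7a11, -0.741 to 0.112 for Slc7a14 and -1.178 to 0.03 for Slc7a9. Carriers under 1 CPM rest on few counts.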
